A study of Mus musculus with 2 samples.

Results

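In the regenerating liver of the Cox10-/- mouse, 66 of 5167 nuclei (1.28%, exact Clopper-Pearson 95% interval 0.989% to 1.62%) carried a set of transcripts that hepatocyte nuclei of the same library held at low levels. These nuclei were chosen by their own counts: at least 1500 unique molecular identifiers (UMIs, each standing for 1 captured RNA molecule), at least 5 UMIs summed over Nrg1, Tenm4, Vmn2r3, Slc7a11, Areg and Igsf11, and at least 3 of these 6 genes detected. The whole series held 10615 nuclei, and 1 of the 5448 wild-type nuclei met the same rule. The levels of the 6 genes and the number of nuclei are therefore descriptions, and what follows concerns the other genes. The 66 nuclei, called members below, were summed and set against the sum of 763 hepatocyte nuclei of the same library, chosen by at least 2000 UMIs and Cps1 at 0.5% or more of UMIs. Cps1 encodes carbamoyl-phosphate synthetase, the entry enzyme of the urea cycle and one of the most abundant hepatocyte transcripts. Of the nuclei that met the hepatocyte rule, 3 also met the members' rule and were kept as members only.

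The study sequenced nuclear RNA from the livers of mice with floxed Cox10 alleles. The enzyme COX10 farnesylates heme, a step toward the heme A that complex IV (cytochrome c oxidase) of the respiratory chain needs. There was 1 library from a liver labelled wild-type and 1 from a liver labelled Cox10-/-, and the mice received AAV8-GFP or AAV8-Cre. AAV8 is a viral vector that enters mainly hepatocytes, so the label Cox10-/- does not mean that the gene was deleted in every cell type. After 4 weeks 70% of the liver was removed, and the protocol places collection 4 days later, whereas the time label reads 4 weeks. Age and sex of the mice were not given in the sources used here. Each genotype is 1 library, nuclei of 1 liver are not replicates, and no test between conditions is made: the intervals below are 95% intervals that cover counting error only.

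Members were deeper than the median nucleus of their library. They held between 1647 and 12231 UMIs each, with a median of 5558, and the hepatocyte reference had a median of 4728. The whole Cox10-/- library had a median of 2291 UMIs over a total of 14476400, and the wild-type library 2853.5 over 17703804. The share of mitochondrially encoded UMIs was alike in the members (median 3.69%) and in the reference (median 3.72%). The libraries had 7 cell barcodes in common, none of them a member's. Cox10 itself gave 45.0 counts scaled to the group's total UMIs (CPM) in the summed members (25.7 to 73.1) and 49.1 in the summed reference (42.5 to 56.4). The deleted exon is not given in the sources used here, and reads from the 3' end outside a deleted exon would not check the label.

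Several of the programs described here are textbook stress responses. In the integrated stress response, kinases that sense mitochondrial, amino acid or heme stress phosphorylate eIF2α, and translation of the factor ATF4 then raises genes of amino acid uptake, aminoacyl-tRNA charging and the secreted factor Gdf15. NRF2 is released from KEAP1 under oxidative or electrophilic stress and raises genes of glutathione synthesis, thioredoxin reduction and NADPH supply. Neuregulin 1 and amphiregulin are growth factors of the EGF family: Nrg1 signals through ERBB3 and ERBB4, and Areg through EGFR.

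**Figure D1:**
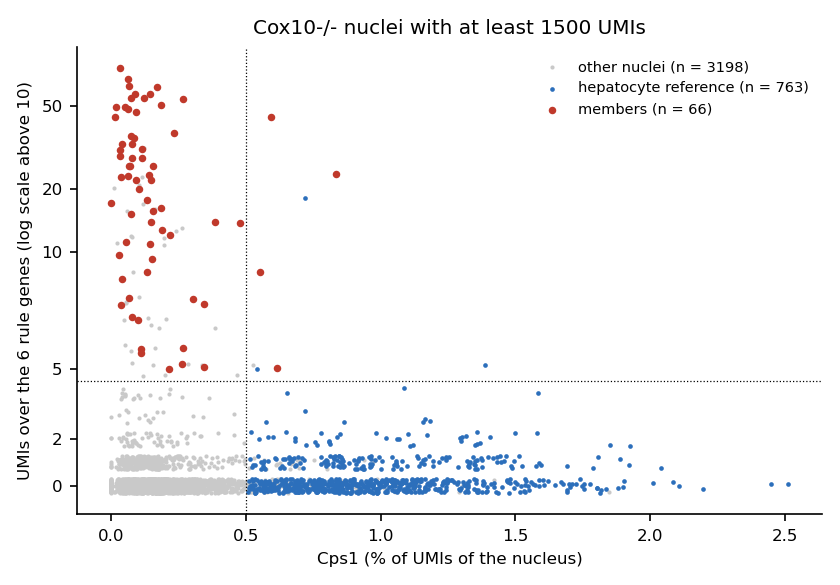
Each point is 1 nucleus of the Cox10-/- library with at least 1500 UMIs, placed by the Cps1 share of its UMIs (x axis, %) and its UMIs over the 6 chosen genes (y axis, linear to 10 and logarithmic above, with a small vertical jitter). Dotted lines mark 5 UMIs and 0.5% Cps1; the 66 members lie above the horizontal line with 63 of them outside the hepatocyte rule, and the 763 reference nuclei lie right of the vertical line.

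The chosen genes were not equally common among members. Nrg1 was detected in 63 of 66 members, with a median of 7 and a maximum of 45 UMIs per nucleus. Igsf11, an adhesion protein of the immunoglobulin superfamily, was detected in 56 members and Areg in 53. Tenm4, a teneurin known from the nervous system, was detected in 42, Slc7a11, the cystine-glutamate antiporter subunit that feeds glutathione synthesis, in 37, and Vmn2r3, a vomeronasal receptor gene, in 34. Nrg1 alone supplied 42.6% of the UMIs of the 6 genes. Summed over members Nrg1 stood at 2073 CPM (1926 to 2229) against 33.2 in the reference, and Areg at 737 against 4.64. The level in the reference was lower still for Tenm4 (563 against 0.977 CPM), Slc7a11 (582 against 2.20) and Vmn2r3 (430 against 0.488), while Igsf11 had some signal there (481 against 27.1). Wild-type hepatocyte nuclei chosen by the same Cps1 rule (3774) held 4.398 CPM of Nrg1 and 0.142 of Areg. Nuclei classed by markers as cholangiocytes, described below, held 386 CPM of Nrg1, 85.0 of Igsf11 and 7.72 of Areg. Summed over the 6 genes they held 514 CPM, against 4867 in members and 68.6 in the reference. Myeloid nuclei held 44.3 CPM of Tenm4. Reads of Nrg1, Tenm4, Slc7a11 and Igsf11 cannot be told apart from those of annotated transcripts that overlap them where strand was not used in counting, which the sources used here do not state.

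To describe how the genes occurred together, members were chosen again by the other 5 genes in turn. Every nucleus chosen in this way was a member already, so the counts describe the members and are no separate support. In the reference, the share of nuclei with a UMI ran from 0.262% for Vmn2r3 to 13.1% for Igsf11. Nrg1 was then detected in 44 of 47 nuclei, Igsf11 in 43 of 53, Areg in 41 of 54, Tenm4 in 36 of 60, Vmn2r3 in 32 of 64 and Slc7a11 in 26 of 55. Of the 333 vomeronasal receptor genes in the table, 7 had any UMI in members, and Vmn2r3 supplied 153 of their 159 UMIs. All 6 genes were present together in 14 members, 5 in 11, 4 in 23 and 3 in 18. The sum over the 6 genes ran from 5 UMIs over a median of 22.5 to 75 in members and from 0 over a median of 0 to 18 in the reference.

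Few members lay near the edge of the rule by UMIs, and more by the number of genes. Just inside it, 7 members had 5 or 6 UMIs over the 6 genes, and 18 of the 66 had exactly 3 of the genes. Just outside, 4 nuclei had 3 or 4 UMIs over at least 3 genes, and 19 had at least 5 UMIs but only 2 of the genes. The 7 members held 759 CPM of Pdk4 (pyruvate dehydrogenase kinase) and 3525 CPM of Gclc (the catalytic subunit of glutathione synthesis). The 4 nuclei just outside by UMIs held 1806 CPM of Pdk4 and 1083 of Gclc, and the 19 nuclei with 2 genes held 340 and 975. A further 20 nuclei had at least 5 UMIs from a single gene, with 133 CPM of Pdk4 and 188 of Gclc. No nucleus under 1500 UMIs met the rest of the rule.

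Outside the 6 genes and Cps1, 9848 genes had at least 20 UMIs over the summed members and reference, and these are the genes called measured. A gene was called higher or lower where its ratio of CPM passed 2 (or its inverse) with the whole interval beyond 1.5. By this measure 879 genes were higher in members (8.93%) and 510 lower (5.18%), and the median log2 ratio over all measured genes was 0.12. With TMM scaling the median became -0.06 and the counts 704 higher and 637 lower, so the balance between higher and lower genes depends on scaling. All folds below use total UMIs. Because members contribute far fewer UMIs than the reference, a gene that is near 0 in hepatocytes can reach 20 UMIs only where it is high in members, and list counts are given with the number of list genes measured. Each list count is to be read beside the 8.93% and 5.18% of all measured genes.

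The genes with the largest excess in members were mostly absent from hepatocytes. Lrrc1, a scaffold protein of the scribble family, had 69 UMIs in members and 1 in the reference (194 against 0.244 CPM, ratio 795, 138 to 31850). Arnt2, a bHLH-PAS partner factor, had 29 UMIs against 0, which is at least 111-fold higher at a floor of 3 UMIs in the summed reference. Slc7a1, the cationic amino acid transporter, stood at 110 against 0.244 CPM. Abcc4, a basolateral efflux pump for bile acids and conjugates, stood at 591 against 5.13 CPM (115-fold, 73.4 to 190). Pdk4, the kinase that switches off pyruvate dehydrogenase and so spares glucose carbon, stood at 948 against 13.4 CPM (70.6-fold, 52.96 to 95.7). Maoa, the outer mitochondrial membrane monoamine oxidase, stood at 554 against 9.03 CPM (61.3-fold, 43.0 to 89.7). Among the 14 highest were also Slc24a3, Cpe, Lhfpl2, Hmga2, Myo5c, Coro6, Tox3 and Grb10, at 59.1 to 369 CPM in members and 0.244 to 4.15 in the reference. Cholangiocyte nuclei were the highest other group for Grb10 (201 CPM), Tox3 (135), Lrrc1 (85.0), Myo5c (65.6), Arnt2 (50.2), Maoa (42.5) and Cpe (34.8). Endothelial nuclei were so for Abcc4 (140), Lhfpl2 (128), Pdk4 (31.9) and Hmga2 (16.8). Slc24a3 stood at 218 CPM in stellate nuclei and Slc7a1 at 44.8 in lymphoid nuclei. Of the 14, only Tox3 was higher in another group than in members (90.03 CPM). An excess over hepatocytes thus does not make a gene particular to members. Hmga2 (an architectural chromatin protein of fetal tissue) rested on 35 UMIs against 3 and Cpe on 36 against 2. By thinned counts, in which each nucleus was reduced to 1500 UMIs, 54.5% of members and 2.10% of the reference had a UMI of Pdk4, against 3.49% of non-hepatocyte nuclei. Pdk4 is at chr6:5483351-5496309 and Gclc at chr9:77754535-77794485 (GRCm38, GENCODE vM21).

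A separate ranking set members against the highest of 6 other groups in the library: the reference and nuclei classed by markers as endothelial (1189), stellate (701), myeloid (437), lymphoid (77) or cholangiocyte (70). Coro6, a coronin that binds actin, led with 21 UMIs in members and 1 in the reference, and had none in the 5 marker classes. Pdk4 was 29.7-fold (23.5 to 38.0) above its level in endothelial nuclei, the next highest. Nupr1, a stress-induced nuclear protein, stood at 279 CPM, 26.2-fold (16.3 to 44.3) above stellate nuclei. Acot2, a mitochondrial acyl-CoA thioesterase, stood at 163 CPM and Gpnmb, a lysosomal and melanosomal glycoprotein, at 166. Dusp4, a nuclear phosphatase of MAP kinases, stood at 219 CPM, 14.2-fold (5.33 to 53.4) above cholangiocytes. Cyb5r1, Maoa, Tsku, Trib3 and Cidec were also among the 12, with 64.7 to 554 CPM in members and an excess of 11.03-fold to 14.1-fold.

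**Figure D2:**
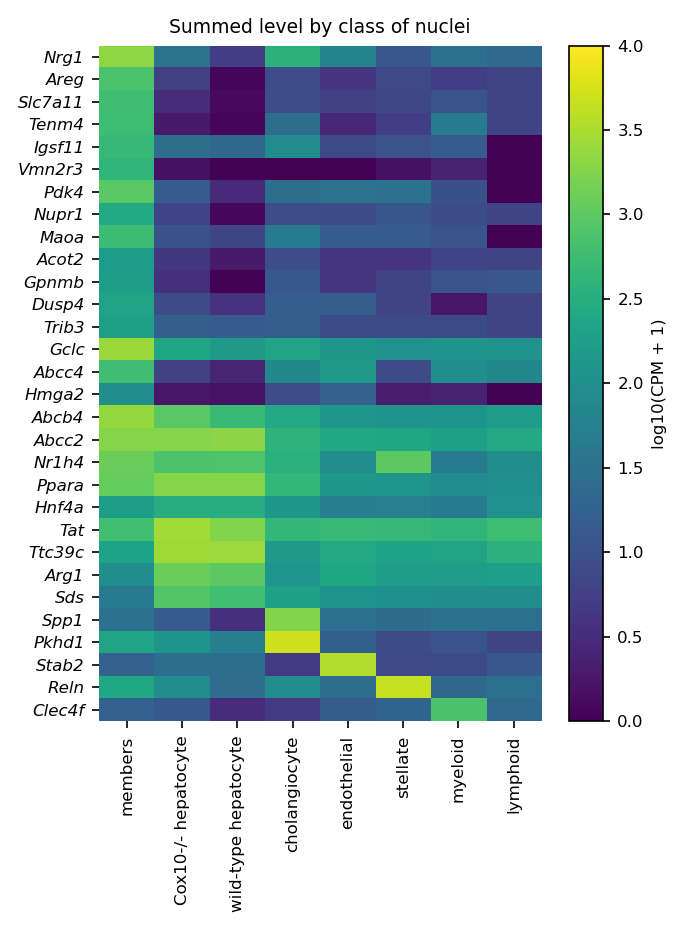
Summed level of selected genes (rows) in members and in 7 other groups of nuclei (columns), as log10 of CPM plus 1. The chosen genes and the stress genes from Pdk4 to Hmga2 are brightest in members; Abcb4, Abcc2, Nr1h4 and Ppara are bright in members as in both hepatocyte columns; Spp1, Stab2, Reln and Clec4f are bright in their own classes.

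Members were checked against markers of the other liver cell types. Summed over the list of 10 endothelial markers they held 155 CPM, against 134 in the reference and 4964 in the non-hepatocyte nuclei (endothelial, stellate, myeloid and lymphoid together, 2404). The stellate list gave 453 CPM against 206 in the reference and 4655 in the non-hepatocyte nuclei, the myeloid list 59.1 against 67.4 and 1218, and the lymphoid list 8.44 against 13.2 and 313. Reln (236 against 91.8 CPM), Ntm (84.4 against 28.1) and Hgf (36.6 against 10.7) were called higher among the 7 stellate genes measured, with a median log2 ratio of 0.70. When nuclei were clustered without the 6 genes, 62 of the 66 members fell in a single cluster, called here the main cluster. In those 62 none of the 7 stellate genes was called and the median was -0.72, so the stellate excess rested on the other 4 members. In all 66 members, Lrat, the vitamin A esterifying enzyme that defines stellate cells, had 2 UMIs and Pdgfrb none. Stab2, an endothelial scavenger receptor, stood at 16.9 against 27.3 CPM, and Clec4f, the Kupffer cell lectin, at 16.9 against 11.5. Flt1 was the single endothelial marker called higher, at 33.8 against 4.395 CPM. In the 62 members of the main cluster the endothelial list had 1 gene higher and 2 lower of 9, with a median of -0.64 against 0.06 in all 66. Themis had no UMI, and Skap1 had 1.

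The nearest marker list was that of cholangiocytes, the cells that line bile ducts. Of its 10 genes 5 were measured, 2 of them called higher and none lower (1 and none in the 62 members of the main cluster), and the summed level was 501 CPM in members, 169 in the reference and 10040 in cholangiocyte nuclei. Bicc1, an RNA-binding protein of duct epithelium, stood at 208 CPM in members, 14.2 in the reference and 2479 in cholangiocytes. Sox9, the factor of ducts and of reactive hepatocytes, rested on 7 UMIs (19.7 against 4.395 CPM). Pkhd1 (fibrocystin) stood at 214 CPM against 115 in the reference and 5074 in cholangiocytes, and Spp1 (osteopontin) at 30.9 against 12.9 and 1826. In the 62 members of the main cluster Bicc1 stood at 166 CPM and Pkhd1 at 181, and in the other 4 members at 794 and 668. Spp1 had no UMI in those 4. Krt19, Krt7 and Cftr had no UMI in members, and Epcam had 2. The count rule of a marker class was met by 5 members for cholangiocytes and by 1 each for endothelial, stellate and myeloid cells, 7 members in all (10.6%), against 35 reference nuclei (4.59%). What part nuclei captured together played in these values was not tested. By doublet score, 2 of 66 members and 29 of 763 reference nuclei lay among the highest 4% of the library. The scoring marked 13 of 5167 nuclei, too few to have worked, so these numbers do not decide that question.

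Some hepatocyte transporter and nuclear receptor transcripts were present in members well above their summed level in non-hepatocyte nuclei, which do not include cholangiocytes. Of 17 genes of bile acid synthesis and transport, 8 had at least 2 times the non-hepatocyte CPM in members, and 15 in the reference. Over all 9848 measured genes these numbers were 2125 and 1866. Abcb4, the phospholipid pump of the bile canaliculus, stood at 2329 CPM in members, 954 in the reference and 124 in non-hepatocyte nuclei, and was called higher (2.44-fold, 2.26 to 2.63). Abcc2, the canalicular export pump for bilirubin conjugates, stood at 1907, 1869 and 228 CPM. Abcc2 was detected in 65 of 66 members and Abcb4 in all 66. Nr1h4, the bile acid receptor FXR, stood at 1280, 735 and 361 CPM, with the stellate nuclei alone at 970 CPM, and Ppara, the receptor that drives fatty acid oxidation, at 1114, 1900 and 120. Hnf4a, the central factor of hepatocyte identity, stood at 174, 305 and 53.2 CPM. The Cps1 share, in contrast, had a median of 0.112% in members and 0.146% in non-hepatocyte nuclei. The count rule of any of the 5 other marker classes was met by 7 of 66 members, and the hepatocyte rule by 3. No hepatocyte marker list was scored per nucleus. Members are called here by their leading genes, without a new cell type name.

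Of 20 hepatocyte identity factors 19 were measured, with 1 higher, 5 lower and 13 uncalled, and a median log2 ratio of -0.61. The gene called higher was Tox, an HMG-box factor better known from T cells, at 4735 against 912 CPM (5.19-fold, 4.8997 to 5.50), present in every member. Those called lower were Nr0b2, the FXR-induced repressor SHP (1 UMI against 281), Esrra, Rxra, Nr1i3 (the xenobiotic receptor CAR) and Nr5a2. Nr0b2 and Nr1h4 thus differed in opposite directions, although only Nr0b2 was called. Members held 12 identity factors at 2 times the non-hepatocyte CPM or more, and the reference 17. Summed over the list, members held 9084 CPM and the reference 6116, of which 4735 and 912 were Tox. The members' sum was thus the larger through Tox alone, and was below the reference without it. Tox aside, no factor of the list was called higher. Cholangiocyte nuclei held 4066 CPM and non-hepatocyte nuclei 1288, both with Tox included.

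The metabolic functions of hepatocytes were not all low. Amino acid breakdown was lowest: of 25 genes measured 23 were lower and 0 higher, with a median log2 ratio of -2.30. Sds, the serine dehydratase of periportal hepatocytes, stood at 42.2 against 857 CPM (20.3-fold lower, 12.3 to 36.3). Aass, which opens lysine breakdown, stood at 132 against 1695 CPM (12.8-fold lower, 9.63 to 17.5), and Gldc, of the glycine cleavage system, at 25.3 against 337. The 2 genes not called were Agxt and Sdsl. In each nucleus the 25 genes together made up 0.112% to 1.03% of UMIs in members, median 0.430%, and 0.514% to 3.27% in the reference, median 1.84%. All 66 members lay below the reference median and 47 below its lowest nucleus. The non-hepatocyte median was 0.471%. In members 18 of the 25 genes were at or below the non-hepatocyte CPM, beside 4618 of all 9848 measured genes. By UMIs per nucleus 5 of the 25 were at or below it, near the share of all genes (1743 of 9848). The 2 measures thus differ, and how much of the members' level is free RNA was not tested.

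Urea cycle genes other than Cps1 were low as well: 7 of 10 were lower and 0 higher, with a median log2 ratio of -2.22. Arg1, the arginase that releases urea, stood at 90.03 CPM in members, 1236 in the reference and 194 in non-hepatocyte nuclei (13.7-fold lower than the reference, 9.71 to 20.1). Asl, argininosuccinate lyase, stood at 98.5 against 965 CPM, and Ass1, the synthase before it, at 346 against 1944. Aqp9 and Glud1, the glycerol channel and glutamate dehydrogenase, were not called, and neither was Nags with 1 UMI. As Cps1 chose the reference, genes that vary with Cps1 between hepatocytes are raised in it by that choice. A reference of 823 nuclei chosen by the identity factors in place of Cps1 gave 861 genes higher and 506 lower, but 718 of these nuclei were also in the Cps1 reference, so it bears little on that choice.

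Gluconeogenesis showed the same direction in 10 of 12 genes, with 0 higher and a median log2 ratio of -2.18. Pck1, the cytosolic PEP carboxykinase, stood at 332 against 2562 CPM (7.72-fold lower, 6.44 to 9.33) and was below its non-hepatocyte level of 647. G6pc, glucose-6-phosphatase, stood at 433 against 2612 CPM, Got1 at 197 against 1256, and Ppargc1a, the coactivator of the fasting program, at 160 against 722. Gpt2 and Foxo1 were not called (746 against 810 and 394 against 643 CPM). The per-nucleus share of the list had a median of 0.310% in members, 1.30% in the reference and 0.237% in non-hepatocyte nuclei.

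**Figure D3:**
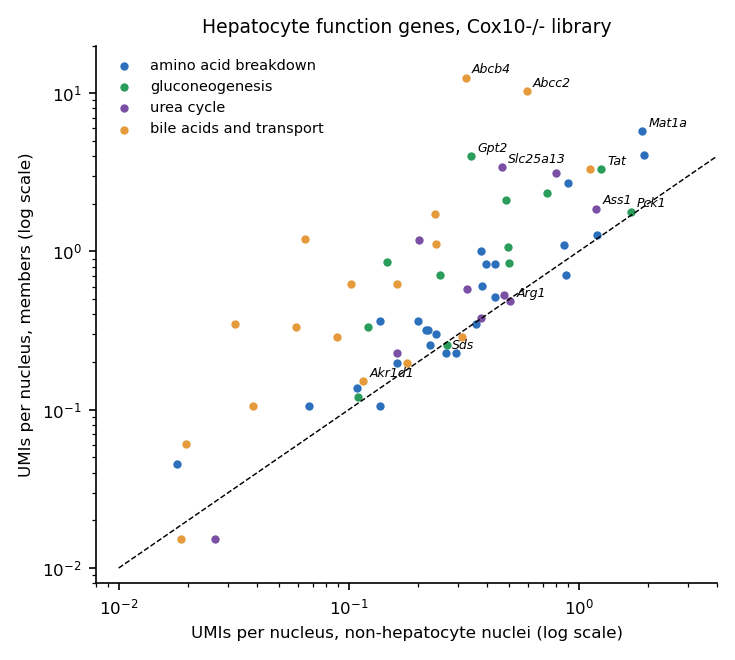
Mean UMIs per nucleus of genes of 4 hepatocyte function lists in members (y axis, log scale) against non-hepatocyte nuclei of the same library (x axis, log scale); the dashed line marks equal values. Genes such as Abcb4, Abcc2 and Gpt2 lie well above the line, while Arg1, Sds and Pck1 lie near it.

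Bile acid synthesis and transport was mixed: of 17 genes 1 was higher (Abcb4), 5 were lower and 11 were not called. The median log2 ratio was -0.97. Summed over the list, members held 6167 CPM and the reference 6025, and 2329 and 1907 CPM of the members' sum were Abcb4 and Abcc2. The summed share per nucleus had a median of 0.589% in members, 0.569% in the reference and 0.134% in non-hepatocyte nuclei. The 5 lower genes were Akr1d1 (the reductase of bile acid synthesis, 28.1 against 212 CPM), Abcg5 (the sterol exporter subunit, 19.7 against 99.9), Slc10a1 (the sodium-dependent bile acid importer, 36.6 against 156), Slco1a4 and Cyp27a1. The canalicular pump Abcb11 stood at 321 against 308 CPM. Of the canalicular exporters, Abcb4 was thus above the reference and Abcg5 below it, and Abcb11 and Abcc2 had ratios near 1.

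Of 22 cytochrome P450 genes 2 were higher and 7 lower, beside 8.93% and 5.18% of all measured genes. The number higher was thus near the share of all genes. Cyp4a14, a fatty acid hydroxylase, rested on 16 UMIs against 6 (45.0 against 1.47 CPM, 30.7-fold, 11.4 to 95.9), and Cyp2a5 stood at 222 against 81.8. Cyp2b10, the CAR target, stood at 8.44 CPM on 3 UMIs against 65.4 in the reference, and Cyp3a25 at 242 against 925. Fatty acid oxidation was near the level of all genes, with 4 of 25 higher, 1 lower and a median log2 ratio of 0.11. Its higher genes were Ehhadh (the peroxisomal bifunctional enzyme, 197 against 45.7 CPM), Cyp4a10, Etfdh and Hadha, and the lower gene was Acsl1. Of 21 sterol and lipid synthesis genes 2 were higher, again near the share of all genes, and 7 lower. Me1 (malic enzyme, 709 against 166 CPM) and Hmgcs1 were higher, and Fasn (19.7 against 136), Srebf1 (28.1 against 165), Acly and Elovl6 were among the lower.

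Of 26 plasma protein transcripts none was called in either direction, with a median log2 ratio of -0.44. By CPM, 23 of the 26 stood at or below their level in non-hepatocyte nuclei, beside 4618 of all 9848 measured genes. By UMIs per nucleus 4 did, near the share of all genes (1743 of 9848). Alb was at 8077 CPM in members, 12904 in the reference and 14593 in non-hepatocyte nuclei. Of 12 periportal genes 4 were lower (Sds, Etnppl, Gls2 and Hal) and 0 higher. Of 12 pericentral genes 10 were measured, with Slc1a2, a glutamate transporter, higher (619 against 201 CPM) and the R-spondin receptor Lgr4 lower (81.6 against 238).

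Beyond the lists, the lowest genes by rule included several abundant hepatocyte transcripts. Ttc39c stood at 211 against 2722 CPM (12.9-fold lower, 10.3 to 16.4), Upp2, a uridine phosphorylase, at 239 against 2501, and Hao1, the peroxisomal glycolate oxidase, at 19.7 against 344. Ces1b (a carboxylesterase) had no UMI in members and 445 in the reference, at least 12.9-fold lower. Car5a, the mitochondrial carbonic anhydrase that supplies bicarbonate to Cps1, had 0 UMIs against 340, at least 9.84-fold lower. Ncam2, Kcnk5, Ctcflos, Ido2, Meg3 and Etnppl were also among the 14 lowest, together with Sds, Arg1 and Aass. Meg3 and Rian, imprinted noncoding RNAs, had 3 and 0 UMIs in members against 818 and 168 in the reference, where 14.7% and 8.78% of nuclei had a UMI. Reads of Sds, Car5a, Ctcflos, Meg3 and Ttc39c overlap other annotated transcripts.

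**Figure D4:**
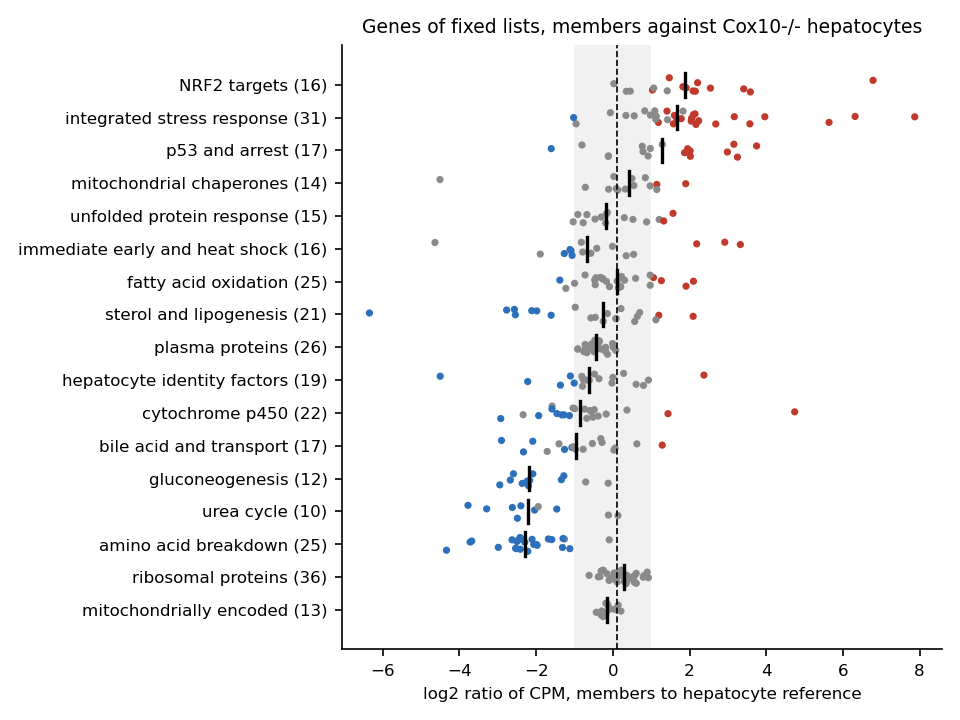
Each point is 1 measured gene of a list (rows, number measured in brackets) by its log2 ratio of CPM in members to the hepatocyte reference; red points were called higher, blue lower and grey neither, and black bars mark list medians. The dashed line is the median of all genes (0.12) and the shaded band spans a ratio of 2 in both directions. The medians of NRF2 targets, integrated stress response and p53 lie right of the band. Those of amino acid breakdown, urea cycle and gluconeogenesis lie left of it. Mitochondrial chaperones (0.41), unfolded protein response (-0.17) and immediate early and heat shock genes (-0.68) have medians inside it.

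Genes of the integrated stress response were mostly higher: of 40 genes 31 were measured, 19 higher and 1 lower, beside 8.93% and 5.18% of all genes, with a median log2 ratio of 1.67 beside 0.12. Slc7a11, a known target of this response and of NRF2, was in neither list because it chose the members. Nupr1 stood at 279 against 5.37 CPM (51.8-fold, 32.4 to 86.5), Trib3, a pseudokinase that feeds back on ATF4, at 186 against 15.4 (12.1-fold, 8.42 to 17.3), and Vldlr, a lipoprotein receptor, at 95.7 against 0.977. Aldh18a1, which opens proline synthesis, rested on 12 UMIs against 8. The aminoacyl-tRNA synthetases Gars (138 against 15.1 CPM), Sars (152 against 23.4), Iars, Lars, Cars and Yars were higher, whereas Aars, Nars and Wars were not called. Gdf15, the circulating mitochondrial stress factor, stood at 397 against 89.6 CPM (4.43-fold, 3.62 to 5.39), with 32.6 in wild-type hepatocytes. Atf4 itself stood at 115 against 58.4 CPM and was not called, and Ddit3 (CHOP) stood at 101 against 23.4. The lower gene was Cebpb (163 against 332 CPM).

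The share of the 40 genes per nucleus ran from 0.0592% over a median of 0.371% to 0.672% in members and from 0 over 0.144% to 0.416% in the reference. By this share 64 of 66 members lay above the reference median and 25 above its highest nucleus. The wild-type hepatocyte median was 0.0908% and the non-hepatocyte median 0.0835%, so the reference itself stood above wild-type hepatocytes. This last contrast is between 2 livers, without replication.

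NRF2 targets gave 11 higher and 0 lower of 16 measured out of 22, with a median log2 ratio of 1.87. Gclc stood at 2512 against 236 CPM (10.7-fold, 9.72 to 11.7), and Gclm, its regulatory subunit, at 152 against 74.0. Gclc supplied more UMIs than any other gene of the list, at 13.5 UMIs per nucleus in members, 1.26 in the reference and 0.309 in non-hepatocyte nuclei. Srxn1 (sulfiredoxin) stood at 78.8 against 6.35 CPM, Osgin1 at 177 against 38.1, Me1 at 709 against 166, Ugdh (UDP-glucose dehydrogenase) at 363 against 96.2, and Txnrd1 (thioredoxin reductase) at 309 against 111. Abcc4, Slc48a1, Hmox1 and Gsr were the other higher genes, and Hmox1 rested on 8 UMIs. Of the pentose phosphate genes, Pgd, Taldo1 and Tkt were not called. The share per nucleus spread widely, from 0.0919% over a median of 0.370% to 2.48% in members, against a reference median of 0.0964% and maximum of 0.414%. It exceeded the reference median in 65 members and the reference maximum in 28.

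**Figure D5:**
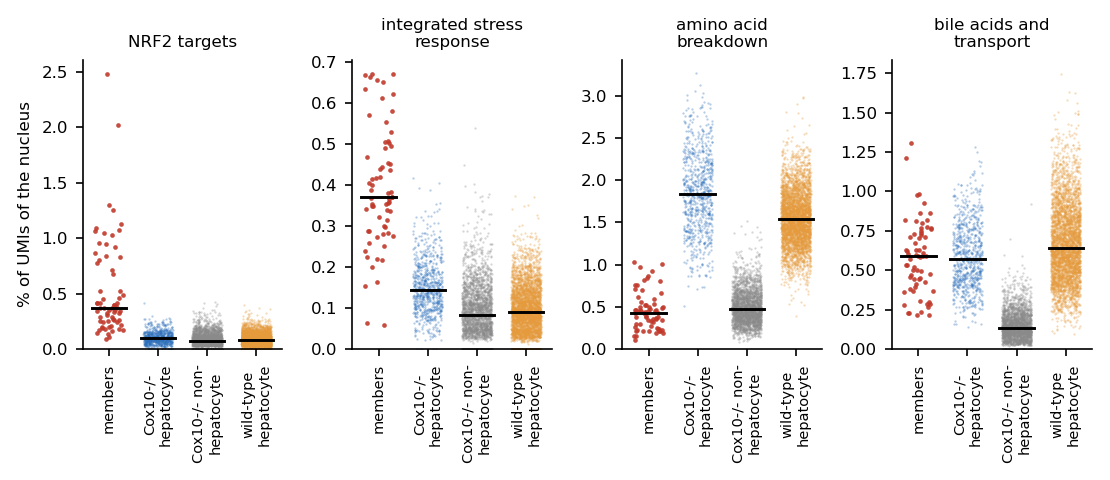
Share of UMIs per nucleus (y axes, %) taken by 4 gene lists in members (66), the Cox10-/- hepatocyte reference (763), Cox10-/- non-hepatocyte nuclei (2404) and wild-type hepatocytes (3774); each point is 1 nucleus and bars are medians. Members lie highest for the 2 stress lists, at the non-hepatocyte level for amino acid breakdown (0.430% against 0.471%) and at the hepatocyte level for bile acids and transport (0.589% against 0.569%).

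Promoters of these genes were searched for motifs bound by the factors named above, in RefSeq windows (GRCm38.p6) of 250 bases before to 50 after each start, on both strands. The C/EBP-ATF response element of ATF4, searched as TGATGNAA, was in 12 of 33 stress response genes with a window (36.4%), in 7 of the 16 called higher (43.75%) and in 4.51% of all 27025 genes with a window. Among measured genes called higher as a whole it was in 4.62%, and in 2.72% of all measured genes. The antioxidant response element, searched as TGACNNNGC, was in 9 of 17 NRF2 list genes (52.9%), in 6 of the 7 called higher with a window and in 13.99% of all genes. Such lists were compiled from known targets of these factors, so the matches describe the lists. The upstream stretches below show where the letters lie for members of the stress lists and for the chosen genes Slc7a11 and Areg, with the motif in capitals, each read 5′ to 3′ on the strand of its gene. Slc7a11 holds the C/EBP-ATF response element 2 times, in opposite orientations, between 66 and 40 bases before its start (chr3:50443629-50443703, minus strand).
Slc7a11: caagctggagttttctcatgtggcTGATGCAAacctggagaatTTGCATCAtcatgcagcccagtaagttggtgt
Nupr1 and Vldlr hold the C/EBP-ATF response element in the reverse orientation (chr7:126625549-126625604, minus strand, and chr19:27216796-27216851, plus strand).
Nupr1: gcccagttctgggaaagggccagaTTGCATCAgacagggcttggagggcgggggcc
Vldlr: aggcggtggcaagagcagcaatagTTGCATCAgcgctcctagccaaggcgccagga
Ugdh holds the antioxidant letters 2 times (chr5:65435904-65435998, minus strand) and Gclm 1 time (chr3:122245399-122245455, plus strand).
Ugdh: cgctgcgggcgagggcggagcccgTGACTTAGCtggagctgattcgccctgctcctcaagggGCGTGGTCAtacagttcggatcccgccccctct
Gclm: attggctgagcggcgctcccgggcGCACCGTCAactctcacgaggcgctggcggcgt
Areg holds the cyclic AMP response element TGACGTCA, an ATF and CREB site found in 2.03% of all genes, between 61 and 54 bases before its start (chr5:91139514-91139569, plus strand).
Areg: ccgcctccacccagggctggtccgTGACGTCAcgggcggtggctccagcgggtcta
No binding was measured here, and the part of any factor in these levels was not tested.

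Targets of p53 were less uniform. Of 23 genes 17 were measured, 8 higher and 1 lower, with a median log2 ratio of 1.29. Cdkn1a, the p21 inhibitor of cell cycle kinases, rested on 15 UMIs (42.2 against 5.13 CPM, 8.23-fold, 3.95 to 16.7), Gadd45a stood at 118 against 12.2, Mdm2 at 236 against 64.5 and Eda2r at 42.2 against 2.93. The abundant members of the list Btg2 (321 against 560 CPM), Sesn1 and Plk3 were not called, and Ei24 was lower. With at least 100 UMIs per gene the median turned to -0.11 over 7 genes, with 1 higher and 1 lower, so the direction of this list rests on its low-count genes. The share per nucleus had a median of 0.185% in members and 0.157% in the reference, and 42 of 66 members lay above the reference median.

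The other stress lists had genes called in one direction or in both, beside 8.93% higher and 5.18% lower of all measured genes. Of 15 genes of the unfolded protein response measured 2 were higher, the sensors Ern1 (IRE1, 954 against 321 CPM) and Atf6 (765 against 305), while the chaperones Hspa5, Hsp90b1 and Calr were not called. Of 14 mitochondrial chaperones and proteases, Lonp1 (90.03 against 23.9 CPM) and Hspa9 (380 against 171) were higher and none lower. The 13 mitochondrially encoded genes and 12 nuclear genes of complex IV had 0 called in either direction, with medians of -0.15 and -0.16. Of 16 immediate early and heat shock genes 3 were higher (Myc, Klf6 and Fosl2) and 4 lower (Jun, Junb, Ier2 and Zfp36). Klf6 stood at 343 against 45.2 CPM (7.60-fold, 5.995 to 9.60) and Jun at 301 against 629. Of 15 inflammatory genes 4 were higher (Cxcl10, Il34, Relb and Nfkbiz) and 2 lower (Il1r1 and Cxcl1), and the 16 UMIs of Cxcl10 came from 4 members.

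Genes of progenitor state and ductal change gave 9 higher and 0 lower of 10 measured, out of 28 in the list. Hmga2, Anxa3, Lgals3, Sox4, Anxa2, Tnfrsf12a (the TWEAK receptor), Cd44, Sox9 and Krt8 were the 9. Of all measured genes, 8.93% were higher and 5.18% lower. A gene nearly absent from hepatocytes, such as Hmga2, Sox4 or Lgals3, is measured only where it is high in members. The count of higher genes is therefore partly fixed by the minimum of UMIs, and does not decide whether the list as a whole was higher. Cd44, the hyaluronan receptor, stood at 172 against 15.6 CPM, close to the 170 of non-hepatocyte nuclei, Sox4 at 70.3 against 2.69, Lgals3 at 67.5 against 1.95, and Krt8 at 335 against 149. Krt18, the partner of Krt8, was not called (84.4 against 76.2 CPM), and 9 of the 28 genes had no UMI in members. Per nucleus the list made up a median of 0.0886% of UMIs in members, 0.0194% in the reference, 0.116% in cholangiocyte and 0.0984% in myeloid nuclei. Of 14 fetal genes 6 were measured, with 3 higher and 2 lower and a median log2 ratio of -1.14. The RNA-binding proteins Igf2bp2 (211 against 10.0 CPM) and Igf2bp3 and the fetal albumin Afp (8 of 66 members with a UMI) were higher, and the imprinted long RNAs Meg3 (8.44 against 199.7 CPM) and Rian (0 against 41.0) were lower. Of 21 cell cycle genes 4 were measured and none was called.

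Among the EGF system genes outside the rule, 13 were measured, 2 higher and 2 lower. The ligand Btc (betacellulin) stood at 67.5 against 8.55 CPM, but only 8 members had a UMI. The feedback phosphatase Dusp4 stood at 219 against 7.08 CPM and was detected in 40 members. The receptor Egfr stood at 1671 against 3691 CPM (2.21-fold lower, 2.03 to 2.40), and the hepatocyte ligand Nrg4 at 245 against 1018 (4.16-fold lower, 3.36 to 5.20). The receptors Erbb4 (309 against 420 CPM) and Erbb3 (30.9 against 81.3) were not called. Nrg1 and Nrg4, both ligands of ERBB4, thus differed from the reference in opposite directions, of which that of Nrg1 was fixed by the choice of nuclei. Other secreted factors called higher included Wnt4 (78.8 against 2.69 CPM), Tgfb2 (47.8 against 0.977), Pdgfa and Gdf15, and Igf1, the growth factor hepatocytes secrete, was lower (340 against 1066).

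In fuel and amino acid use, Pdk4, Pfkp (the platelet phosphofructokinase, 110 against 13.9 CPM) and the lactate carrier Slc16a1 were the 3 of 19 glycolysis genes called higher, and Pfkfb3 and Pdk1 were among the 3 called lower. Pdk4 and Pdk1, kinases of the same complex, thus differed in opposite directions (Pdk1 8.44 against 60.1 CPM). Of 13 serine, proline and one-carbon genes 4 were higher (Aldh18a1, Slc6a9, Slc1a4 and Slc1a5) and 4 lower (Aldh1l1, Mthfd1, Shmt1 and Slc38a2). Plasma membrane amino acid carriers were on both sides, with Slc6a9, Slc1a4 and Slc1a5 higher and Slc38a2 lower. The list median was 0.49, but -1.30 with at least 100 UMIs per gene.

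Members differed among themselves along the 6-gene sum. With 5 to 9, 10 to 29 and at least 30 UMIs over the 6 genes there were 16, 27 and 23 nuclei, with median depths of 2806.5, 4783 and 6601 UMIs. Depth and the sum cannot be told apart across these sets. Pdk4 stood at 681, 788 and 1174 CPM in these 3 sets, Abcc4 at 307, 488 and 777, and Maoa at 136, 533 and 722. Amino acid breakdown took a median share of 0.759%, 0.427% and 0.294%. Stress response shares gave no such order, at 0.410%, 0.341% and 0.416%. The 3 members that also met the hepatocyte rule held 160 CPM of Pdk4 and no UMI of Abcc4, but 519 CPM of Trib3.

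Clustering of the Cox10-/- nuclei with at least 1500 UMIs, made without the 6 genes, placed 62 of the 66 members in a single cluster of 102 nuclei, at each of the resolutions 0.5, 1 and 2. The other 4 members lay elsewhere at resolution 1, with 2 in a cluster of 81 nuclei that held 67 of the 70 cholangiocyte nuclei. Another lay in a cluster led by Nkain2 and Pcdh7, and at resolution 2 in one with Colec11 of the stellate list among its leading genes. The last lay in a cluster led by Pla2g7 and Aoah, with Cd163 and Vsig4 of the myeloid list among its leading genes. All 4 stayed in the sums over members. The 40 further nuclei of the main cluster had a median of 3 UMIs over the 6 genes and of 3777.5 UMIs in all, and 5 of them met the hepatocyte rule. They held 846 CPM of Pdk4 (1008 in the 62 members), 1058 of Gclc (2573), 3407 of Tox (4932) and 113 of Arg1 (81.4), but 589 of Ttc39c (226). In the 35 that were not reference nuclei the stress response had a median log2 ratio of 1.23, NRF2 targets 1.38, amino acid breakdown -1.59 and urea cycle -1.65. The cluster was made from these genes, so this is a description: nuclei that the 6 genes did not choose lay between members and reference for these lists.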

How the data were processed

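The authors deposited raw UMI counts per gene and nucleus for both libraries in 1 table of 32286 genes. Per the submitters' processing notes they used Cell Ranger 7.0 and the mm10 build, and whether intronic reads or strand were used is not given in the sources used here. Per the labels' protocols the liver cells were strained, nuclei were isolated and 7000 per sample were used with a 10x Genomics 3' kit.

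Groups of nuclei were summed in Python 3.11.15 with numpy 2.4.6 and scipy 1.17.1. Ratios of CPM carry exact conditional binomial 95% intervals, and log2 ratios add to each count a prior of 0.5 UMI on average, scaled to the group's total UMIs. A marker class needed at least 1500 UMIs, 5 UMIs and 3 genes of its list, Cps1 under 0.5% and no second class. Free RNA was not estimated, and levels in non-hepatocyte nuclei are given beside those of members. The non-hepatocyte nuclei had a median of 2444 UMIs, against 5558 in members. With 1 library per genotype there are no replicates and no tests. Clusters used scanpy 1.11.5 (2000 variable genes, 30 components, 15 neighbours). Scrublet marked 13 of 5167 nuclei (0.252%), too few to have worked, so doublets were kept. Alternative scalings used edgeR 4.0.16 and DESeq2 1.42.0. The calling step was checked on simulated data.

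Named genes are the genes whose interval lay farthest from 1 (14 higher and 14 lower), the 12 highest against all other groups, up to 4 with the largest ratio in each list, defining markers, and list genes where a count was 5 or fewer. Other list genes were named after their values were seen. Predicted genes (for example Gm followed by digits) were left out of the rankings. The members and the gene lists were chosen with earlier results of these data known. Promoter windows are from RefSeq (GRCm38.p6), matched by symbol for 7749 of 9848 measured genes. Some genes of the lists and rankings are not reported here.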

Additional observations from a re-analysis of the deposited data

How the results depend on the processing

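No paired analysis was possible because each genotype has 1 library. Across 15 alternatives, 87 single genes were followed, and the 75 that were called kept their sign in each of them. These genes were taken from the rankings and lists above, and the alternatives reuse largely the same nuclei. Agreement in sign was thus nearly fixed in advance. Of 34 list medians, 20 kept their sign in each alternative and 14 changed it in at least 1, of which 7 were within 0.2 of 0 in the reported comparison. The p53 targets were at -0.11 with at least 100 UMIs per gene and at 0.40 with each nucleus thinned to 1500 UMIs, where fewer genes were measured. The stellate list (0.70) was at -0.72 in members of the main cluster only, -0.17 without the highest 4% of doublet scores and -0.10 with at most 10% mitochondrially encoded UMIs. In the main cluster only, the endothelial list was at -0.64 and the myeloid list at -0.93, from 0.06 and 0.01. Serine, proline and one-carbon genes (0.49) were at -1.30 with at least 100 UMIs per gene and -1.14 after thinning. The median for plasma proteins was -0.62 with TMM scaling, -0.59 with DESeq2 size factors, -0.66 with at least 10 UMIs and 4 genes over the 6, and -0.21 with a reference of Cps1 at 1% or more. Those choices of members gave 41 nuclei for at least 10 UMIs and 4 genes and 101 for at least 3 UMIs and 2 genes, with amino acid breakdown at -2.53 and -1.93. Genes called higher numbered 520 with at least 100 UMIs per gene and 411 after thinning, and genes called lower 264 after thinning, where fewer UMIs and genes were tested. Without a minimum of 20 UMIs, 1192 genes were higher. Limiting members to the main cluster (832 higher, 497 lower) and choosing the reference by identity factors (861 and 506, with 718 of its 823 nuclei shared) were added after seeing the data. Depth limits the low genes: 3 UMIs in the summed members are the floor used for a count of 0.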

Other observations

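A transcript named Dendra2, a photoconvertible fluorescent protein whose construct is not described in the sources used here, stood at 245 CPM in members, 356 in the hepatocyte reference and 306 in non-hepatocyte nuclei. The nuclear retained RNAs Malat1 and Neat1 were not called between members and reference (26513 against 20055 and 3061 against 2035 CPM). Of the 5 nuclear retained RNAs measured, Snhg11 was called higher (87.2 against 16.8 CPM). None of 36 ribosomal protein genes was called.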
